A study of Homo sapiens with 39 samples.

Results

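AZD-SAR is a hybrid estrogen receptor ligand that, by the labels, takes its scaffold from AZD9496 and its side chain from SAR439859. Its effect on the transcriptome was read from 6 AZD-SAR libraries, 3 at 30 nM and 3 at 300 nM, set against 3 vehicle (DMSO) libraries, out of 39 libraries and 13 groups in all. All libraries came from HCC1428-LTED, a human breast cancer cell line positive for estrogen receptor α that has been adapted to long-term growth without estrogen, and every group, DMSO included, spent 24 hours with compound or vehicle in IMEM medium that held 5% charcoal-stripped serum. Other groups received fulvestrant, SAR439859, AZD9496, GDC-0810 or GDC-SAR, a hybrid with the same side chain on another scaffold, and 3 of these compounds were compared with AZD-SAR. The line is 1 adapted population in culture, and the series text speaks of duplicates where the labels give 3 libraries per group. Nothing in the labels says that replicates were separate cultures, so the p-values measure the spread between libraries, which may be technical. RNA was measured as TPM, a transcript's share of its library corrected for transcript length and scaled to the same total in every library. Of 46706 gene symbols, 14404 averaged 1 TPM or more over the 39 libraries and were tested. Differences are on the log2(TPM + 1) scale, which understates changes of genes near 0, and a gene was called at a Benjamini-Hochberg adjusted p below 0.05 in limma's moderated test. The question was which genes the hybrid moved relative to vehicle, with both doses pooled.

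Estrogen receptor α, the product of ESR1, is a nuclear receptor that binds DNA at estrogen response elements and recruits coactivators when it holds an agonist. In luminal breast cancer cells it drives genes such as PGR, GREB1 and TFF1 together with MYC and cyclin D1, which push cells through G1 into S phase. Antagonists and degraders displace the hormone, block coactivator binding or lead the receptor to the proteasome. Cells deprived of estrogen for a long time can keep an active receptor, so a ligand can be tested on them against vehicle alone.

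The luminal identity of the line was visible in all 9 libraries. The summed level of 15 luminal markers was 10533 to 14983 TPM with AZD-SAR and 7641 to 8724 TPM with DMSO, and of these markers only ANKRD30A was at 0 in all 9. GATA3 alone averaged 5264 TPM with AZD-SAR and 1116 TPM with DMSO, and most of the difference in the sums lay there. Means of KRT8, KRT18, KRT19, ESR1, XBP1 and SPDEF were lower with AZD-SAR. Those of KRT7, EPCAM, CDH1, FOXA1, TFF3, MUC1 and AGR2 were higher. Of the 14 luminal markers tested, 5 were called higher and 3 lower with AZD-SAR, where 16.2% of all genes tested were called higher and 13.5% lower. Basal and mesenchymal markers summed to 26.7 to 62.5 TPM with AZD-SAR and 32.7 to 43.7 TPM with DMSO, and 1 of them, FN1, was tested and not called. FN1 made up most of these sums, with means of 39.4 TPM with AZD-SAR and 35.1 TPM with DMSO. Stromal, endothelial and immune markers summed to 17.5 to 32.0 TPM with AZD-SAR and 14.7 to 18.1 TPM with DMSO. Of these, 2 were tested, and COL1A1, a fibrillar collagen, was called higher (14.4 ± 3.26 TPM with AZD-SAR against 8.14 ± 0.965 TPM with DMSO, SD). In RNA from whole cultures, fewer cells of a type and less RNA per cell cannot be told apart.

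A few abundant noncoding RNAs took very different shares of the libraries. RN7SL1, the RNA of the signal recognition particle, made up 1.18%, 1.03% and 2.66% of all TPM at 30 nM AZD-SAR and 0.533%, 0.318% and 4.41% at 300 nM, against 10.7% to 11.5% with DMSO. SNORA76C, a small nucleolar RNA, took 9.72% to 18.7% with AZD-SAR and 4.56% to 6.24% with DMSO. RMRP, the RNA of RNase MRP, took 1.75% to 3.90% with AZD-SAR and 4.55% to 6.42% with DMSO. In the other 30 treated libraries of the series RN7SL1 reached at most 7.28%, so all 3 DMSO libraries lay above every treated one. Within AZD-SAR, replicate 3 of each dose lay nearer to DMSO in all 3 RNAs than the other 4 libraries did. DMSO replicate 3 carries the same index sequence as AZD-SAR 300 nM replicate 3, so they cannot have been sequenced in 1 pool; pools are not labelled, and a pool that held DMSO apart cannot be told apart from the treatment. Without the 2 AZD-SAR replicates 3, the comparison with DMSO called 2382 genes higher and 2083 lower. The part of these RNAs in the results below was not tested.

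**Figure D1:**
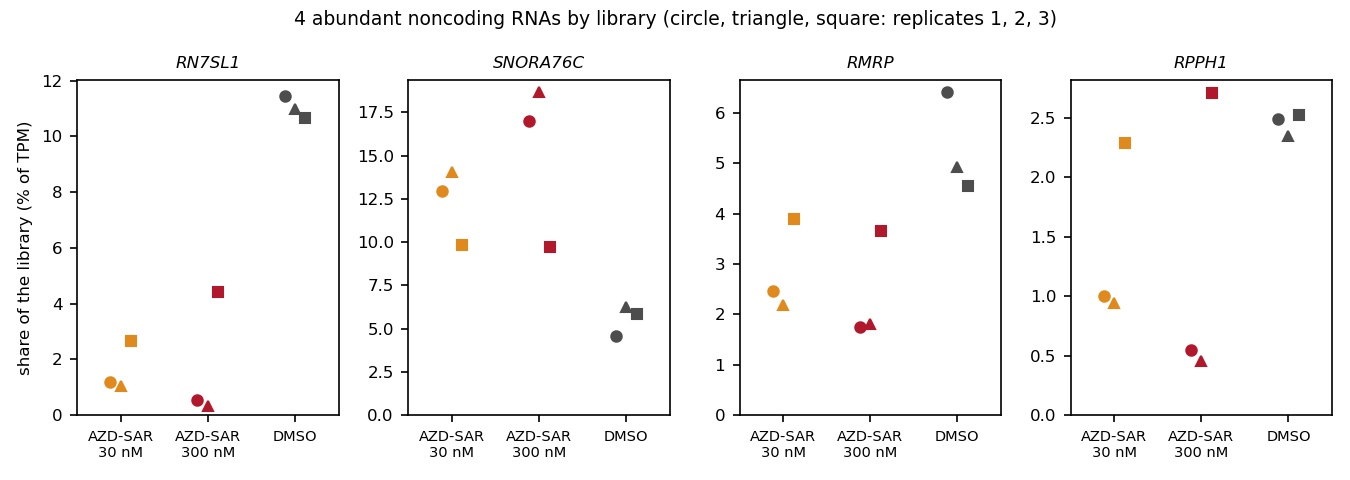
Share of the library, in percent of TPM, taken by RN7SL1, SNORA76C, RMRP and RPPH1 (the RNA of RNase P) in each of the 9 libraries, by group. RN7SL1 stands above 10% in the 3 DMSO libraries and at or below 4.41% in the AZD-SAR libraries, and the squares (replicate 3) of both AZD-SAR doses lie closer to DMSO than the circles and triangles.

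The promoters of a few genes are shown for the sequence in front of them. The E2F factors bind sites of the form TTTCCCGC, TTTGGCGC, TTTCGCGC or TTTGCCGC, and 17 of 31 DNA replication promoters (54.8%) held at least 1 of these words on either strand within 250 bases before and 50 bases after the gene start, against 3.31% of 35116 promoters of the same length. The 31 are list members with a sequence, called or not, and the 35116 were not limited to genes tested. These shares describe the list and do not bear on the response to AZD-SAR. Only promoters that held such a word were taken for print, by size of change. RFC5 (-2.11) fell further than MCM6 (-1.98) and its promoter held none, nor did that of MCM10 (-1.97). The DNA replication promoters of CDC6, CDT1 and MCM6 are given 5′ to 3′ on the strand of the gene, with the E2F words in capitals. In MCM6 the capitals cover 2 pairs of words that overlap on opposite strands. The promoter of CYP1A1, the most strongly raised aryl hydrocarbon receptor target, follows with the core of the xenobiotic response element (GCGTG on either strand) in capitals. That core is short and stood in 36.5% of all promoters. Sequences are RefSeq promoters of build GRCh38.p14.
CDC6, chr17:40287629-40287928, plus strand: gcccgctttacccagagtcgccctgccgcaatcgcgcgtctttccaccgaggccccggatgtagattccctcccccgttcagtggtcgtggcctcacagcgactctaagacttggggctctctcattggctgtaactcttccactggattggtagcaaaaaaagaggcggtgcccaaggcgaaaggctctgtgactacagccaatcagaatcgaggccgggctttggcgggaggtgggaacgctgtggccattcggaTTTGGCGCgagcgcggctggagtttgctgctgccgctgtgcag
CDT1, chr16:88803539-88803838, plus strand: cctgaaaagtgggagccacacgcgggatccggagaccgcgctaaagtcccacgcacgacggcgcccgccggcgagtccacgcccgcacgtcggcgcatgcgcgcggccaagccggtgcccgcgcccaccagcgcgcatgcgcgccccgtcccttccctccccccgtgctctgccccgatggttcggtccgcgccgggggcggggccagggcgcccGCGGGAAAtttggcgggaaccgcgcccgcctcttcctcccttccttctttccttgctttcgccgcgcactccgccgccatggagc
MCM6, chr2:135876394-135876693, minus strand: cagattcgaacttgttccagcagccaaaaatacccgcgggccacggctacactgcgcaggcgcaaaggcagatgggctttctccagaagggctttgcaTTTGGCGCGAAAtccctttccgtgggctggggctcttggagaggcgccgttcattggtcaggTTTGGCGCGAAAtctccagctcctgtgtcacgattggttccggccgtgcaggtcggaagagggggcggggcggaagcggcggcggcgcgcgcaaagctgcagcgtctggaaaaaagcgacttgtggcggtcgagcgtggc
CYP1A1, chr15:74725479-74725778, minus strand: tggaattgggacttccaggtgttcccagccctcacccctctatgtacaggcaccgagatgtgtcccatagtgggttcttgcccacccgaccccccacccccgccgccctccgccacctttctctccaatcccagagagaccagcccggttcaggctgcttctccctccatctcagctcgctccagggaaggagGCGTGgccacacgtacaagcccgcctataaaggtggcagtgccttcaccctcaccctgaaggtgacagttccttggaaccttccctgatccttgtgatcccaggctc
A full estrogen response element, GGTCA and TGACC set 3 bases apart, stood in none of the 26 promoters of the estrogen-induced list that matched a sequence and in 0.057% of all promoters, so none is shown. A match describes letters only, and no match says only that these letters are absent from the window.

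A large part of the transcriptome differed between AZD-SAR and DMSO. With the doses pooled, 2336 genes (16.2% of those tested) were called higher and 1945 (13.5%) lower than with DMSO, and 575 and 547 of these differed by at least 1 on the log2 scale. Without DMSO replicate 2, 1543 were called higher. The 6 AZD-SAR and 3 DMSO libraries did not overlap for 3573 of the 4281 called genes (83.5%) and for 4399 of all genes tested (30.5%). The calls and the lack of overlap were read from the same values. The balance of directions depends on the scale: 54.6% of called genes were higher in TPM, 48.0% after median-of-ratios scaling (2176 higher and 2359 lower) and 44.1% when TPM were rescaled over protein-coding genes (1744 higher and 2210 lower). The median over all genes tested was 0.07, 0.02 and -0.04 on these 3 scales.

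The genes that fell furthest were classical estrogen targets, a cytokine, histone genes and RN7SL1. IL20, an interleukin of the IL-10 family (chr1:206865354-206869223, GRCh38), was at 1.73, 1.57 and 2.77 TPM at 30 nM and 0.897, 0.625 and 1.71 TPM at 300 nM, against 66.6, 68.5 and 67.4 TPM with DMSO. Its AZD-SAR libraries lay far below all DMSO libraries, with a log2 difference of -4.80 ± 0.28 (SE, adjusted p = 9.04e-14). EGR3, a zinc finger transcription factor induced early by estrogen, was at 1.03, 0.538 and 0.126 TPM at 30 nM and 0.811, 0.0824 and 0.0584 TPM at 300 nM, against 29.7, 27.2 and 20.3 TPM with DMSO, a difference of -4.25 ± 0.23 (adjusted p = 3.18e-14). KRT13, a keratin of stratified epithelium (chr17:41500981-41505705, GRCh38), was at 3.11, 3.65 and 1.61 TPM at 30 nM and 2.89, 3.13 and 2.01 TPM at 300 nM, against 52, 45.6 and 42.7 TPM with DMSO. The difference for KRT13 was -3.70 ± 0.30 (adjusted p = 1.20e-10), again with no overlap. CITED1, a transcriptional coregulator that binds CBP and p300, was at 1.31, 1.45 and 1.16 TPM at 30 nM and 0.373, 1.55 and 0.898 TPM at 300 nM, against 33.4, 30.9 and 14.5 TPM with DMSO, and fell by 3.63 although its DMSO libraries varied by more than 2-fold. ID4, an inhibitor of basic helix-loop-helix factors, averaged 0.9 ± 0.461 TPM with AZD-SAR and 13.8 ± 0.227 TPM with DMSO (SD, n = 6 and 3). The long noncoding RNA LINC01016 averaged 1.24 ± 0.521 TPM with AZD-SAR and 17.5 ± 2.01 TPM with DMSO. RN7SL1 fell by 3.25 and the histone genes HIST1H2AK and HIST1H2AB by 3.09 and 3.08. RP11-386I14.4, a symbol with no annotation here, had 0 to 29.6 TPM with AZD-SAR and 51.2 to 155 TPM with DMSO, and its call was lost at a pseudocount of 0.1, at 30 nM alone and in other settings.

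The genes that rose furthest were more mixed, and many were noncoding genes, pseudogenes or symbols without a matched annotation, written here as the files name them. CYP1A1, a cytochrome P450 that oxidises polycyclic aromatics and estrogens (chr15:74719542-74725610, GRCh38), was at 8.59, 5.55 and 6.45 TPM at 30 nM and 8.09, 9.21 and 8.08 TPM at 300 nM, against 0.229, 0.423 and 0.297 TPM with DMSO. All 6 AZD-SAR libraries exceeded every DMSO library, with a difference of 2.70 ± 0.19 (adjusted p = 5.27e-12). ABCA4, a lipid-transporting ABC protein best known from photoreceptors, averaged 33.1 ± 6.6 TPM with AZD-SAR and 5.2 ± 1.33 TPM with DMSO, a difference of 2.46 ± 0.32. PIP, the prolactin-induced protein of apocrine cells, was at 164, 149 and 137 TPM at 30 nM and 239, 216 and 108 TPM at 300 nM, against 40.4, 30.6 and 24.8 TPM with DMSO, a difference of 2.34 ± 0.20 (adjusted p = 3.97e-10). Replicate 3 had the lowest PIP level at each dose. FAM183A rose by 2.36. Among noncoding or unannotated symbols, LINC00505 (173 ± 60 TPM with AZD-SAR against 23.6 ± 1.43 TPM with DMSO), AC104655.3 (70.7 ± 8.66 TPM with AZD-SAR against 11.2 ± 2.4 TPM with DMSO), RP11-799B12.4 (22.1 ± 4.67 TPM with AZD-SAR against 2.67 ± 0.787 TPM with DMSO), AC073284.4 (9.76 ± 5.76 TPM with AZD-SAR against 0.724 ± 0.635 TPM with DMSO) and C1ORF213 (8.38 ± 3.09 TPM with AZD-SAR against 0.672 ± 0.341 TPM with DMSO) were called higher. AC006011.4 reached 6.31 to 29 TPM with AZD-SAR while 2 of 3 DMSO libraries stood at or near 0, so no fold is given, and its call was lost at 30 nM alone and without DMSO replicate 2 or 3. RPS21P4 and RPL32P29, processed pseudogenes, were called higher, with 122 ± 41.2 TPM for RPS21P4 with AZD-SAR against 13.8 ± 2.13 TPM with DMSO. Their reads may be shared with RPS21 and RPL32, which differed by 1.08 (called) and -0.03 (not called).

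**Figure D2:**
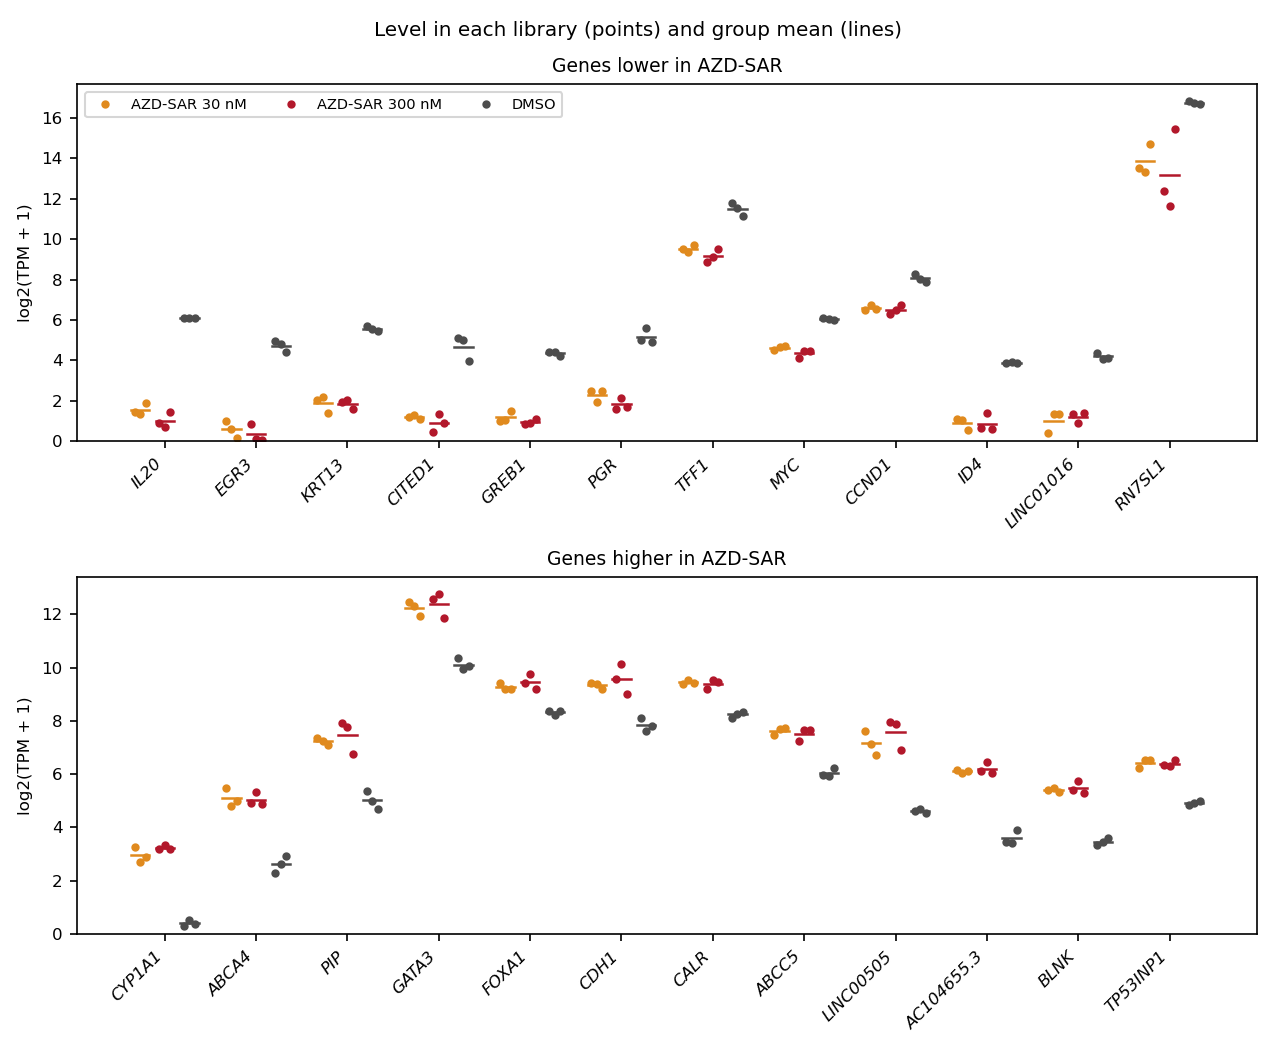
Level on the log2(TPM + 1) scale in each library of AZD-SAR 30 nM, AZD-SAR 300 nM and DMSO for 12 genes that were lower (top) and 12 that were higher (bottom) with AZD-SAR. Points are libraries and lines are group means; for every gene shown the AZD-SAR points lie on 1 side of the DMSO points.

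Over all genes tested, 16.2% were called higher and 13.5% lower, and each list count below is to be read beside these shares. The lists and their members were chosen with earlier results of these data known. The counts therefore describe the lists, and an excess over these shares is not a test. The estrogen-induced list fell nearly as a whole. Of its 42 genes, 37 were tested, and 30 (81.1%) were called lower and 2 higher, with a median of -1.39 against 0.07 over all genes. PGR, the progesterone receptor (chr11:101029624-101130524, GRCh38), was at 4.59, 2.84 and 4.64 TPM at 30 nM and 2.05, 3.46 and 2.26 TPM at 300 nM, against 31.3, 47 and 29.2 TPM with DMSO, a difference of -3.11 ± 0.18 (adjusted p = 6.98e-14). An antisense gene, PGR-AS1, overlaps PGR, and whether counting used strand is not given in the sources used here. GREB1, a chromatin-bound coregulator of the receptor (chr2:11482341-11642788, GRCh38), was at 1.02, 1.1 and 1.84 TPM at 30 nM and 0.818, 0.877 and 1.13 TPM at 300 nM, against 20.7, 20.6 and 17.9 TPM with DMSO, a difference of -3.30 ± 0.22 (adjusted p = 2.66e-12). TFF1, a secreted trefoil peptide, was at 717, 661 and 826 TPM at 30 nM and 465, 551 and 719.7 TPM at 300 nM, against 3471, 2986 and 2262 TPM with DMSO, and fell by 2.15 (SE 0.17). All 6 AZD-SAR libraries of these genes lay below all DMSO libraries. MYC, a growth-promoting transcription factor, was at 22.1, 24.1 and 25.5 TPM at 30 nM and 16.1, 21 and 21.5 TPM at 300 nM, against 68.6, 65.5 and 63.8 TPM with DMSO, a difference of -1.57 ± 0.12 (adjusted p = 1.70e-11). CCND1, which encodes cyclin D1, was at 89.8, 107 and 91.3 TPM at 30 nM and 78.6, 87.9 and 104 TPM at 300 nM, against 309, 260.4 and 231 TPM with DMSO, a difference of -1.50 ± 0.13. For neither gene did an AZD-SAR library reach the lowest DMSO library. IL17RB, a receptor for IL-17 cytokines, fell by 2.74, RAPGEFL1 by 2.18, the stanniocalcins STC1 and STC2, secreted glycoprotein hormones, by 2.02 and 1.85, the growth factor receptor RET by 1.54, and IGFBP4, which binds insulin-like growth factors, by 1.45. Members that were not called were MYB (-0.62), OLFM1 (-0.31), MREG (-0.31), NRIP1 (-0.15) and CA12 (0.21). The 2 members called higher were ELF3 (0.68), an epithelial ETS factor, and TFF3 (0.35), a trefoil peptide, both with overlapping groups. PDZK1, AREG, CXCL12, FOS and WISP2 fell under the level filter and were not tested; PDZK1 averaged 0.379 TPM with AZD-SAR and 3.90 TPM with DMSO.

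Estrogen-repressed genes moved the other way, with 9 of 15 (60%) called higher, 1 lower and a median of 0.80. BLNK, an adaptor of B-cell receptor signalling, was at 41.4, 43.9 and 39.5 TPM at 30 nM and 40.9, 53.1 and 38.1 TPM at 300 nM, against 9.14, 9.95 and 11.3 TPM with DMSO, a difference of 1.97 ± 0.16 (adjusted p = 8.50e-11). TP53INP1, a stress-induced autophagy factor, averaged 84.4 ± 7.66 TPM with AZD-SAR and 29.1 ± 1.94 TPM with DMSO, CCNG2, an atypical cyclin linked to cell cycle arrest, rose by 1.19, and ERBB2, the HER2 receptor tyrosine kinase, by 0.93. PMAIP1, the BH3-only protein NOXA, was the member called lower (0.557 ± 0.21 TPM with AZD-SAR against 3.02 ± 0.793 TPM with DMSO).

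Transcript of the receptor itself was not called. ESR1 was at 341, 436 and 404 TPM at 30 nM and 250.1, 379 and 429 TPM at 300 nM, against 409, 459 and 439 TPM with DMSO, a difference of -0.25 ± 0.14 with a 95% interval of -0.53 to 0.03 (adjusted p = 0.183), and the groups overlapped. Of 15 luminal transcription factors and receptors, 6 were called higher and 3 lower, with a median of 0.09. GATA3, which opens chromatin together with the receptor, was at 5624, 5120.3 and 3971 TPM at 30 nM and 6149.6, 7036 and 3684 TPM at 300 nM, against 1308, 981 and 1058 TPM with DMSO, a difference of 2.21 ± 0.31 (adjusted p = 3.28e-06). Every AZD-SAR library exceeded every DMSO library, with the lowest value at replicate 3 of each dose, the libraries richest in RN7SL1, and the difference without those 2 libraries was 2.42. The part of the RN7SL1 shares in this difference was not tested. FOXA1, the pioneer factor of luminal cells, averaged 664 ± 112 TPM with AZD-SAR and 319 ± 16.2 TPM with DMSO, a difference of 1.04 ± 0.14. ZNF703, a luminal transcriptional repressor, fell by 1.27, and GRHL2, a grainyhead factor of epithelium, was called lower (-1.18 ± 0.36) with overlapping groups and lost its call without DMSO replicate 2. Among 20 coactivators and corepressors, 8 were called higher and 3 lower (median 0.10, and -0.02 at 300 nM alone). NCOA3, a p160 coactivator amplified in breast cancer, averaged 26 ± 2.48 TPM with AZD-SAR and 14.5 ± 0.775 TPM with DMSO, and the acetyltransferase EP300 rose by 0.63. PELP1, a scaffold for receptor signalling, fell by 1.08, and PHB2, a mitochondrial prohibitin that represses the receptor, was called lower (-0.95) with overlapping libraries and lost its call without DMSO replicate 2.

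**Figure D3:**
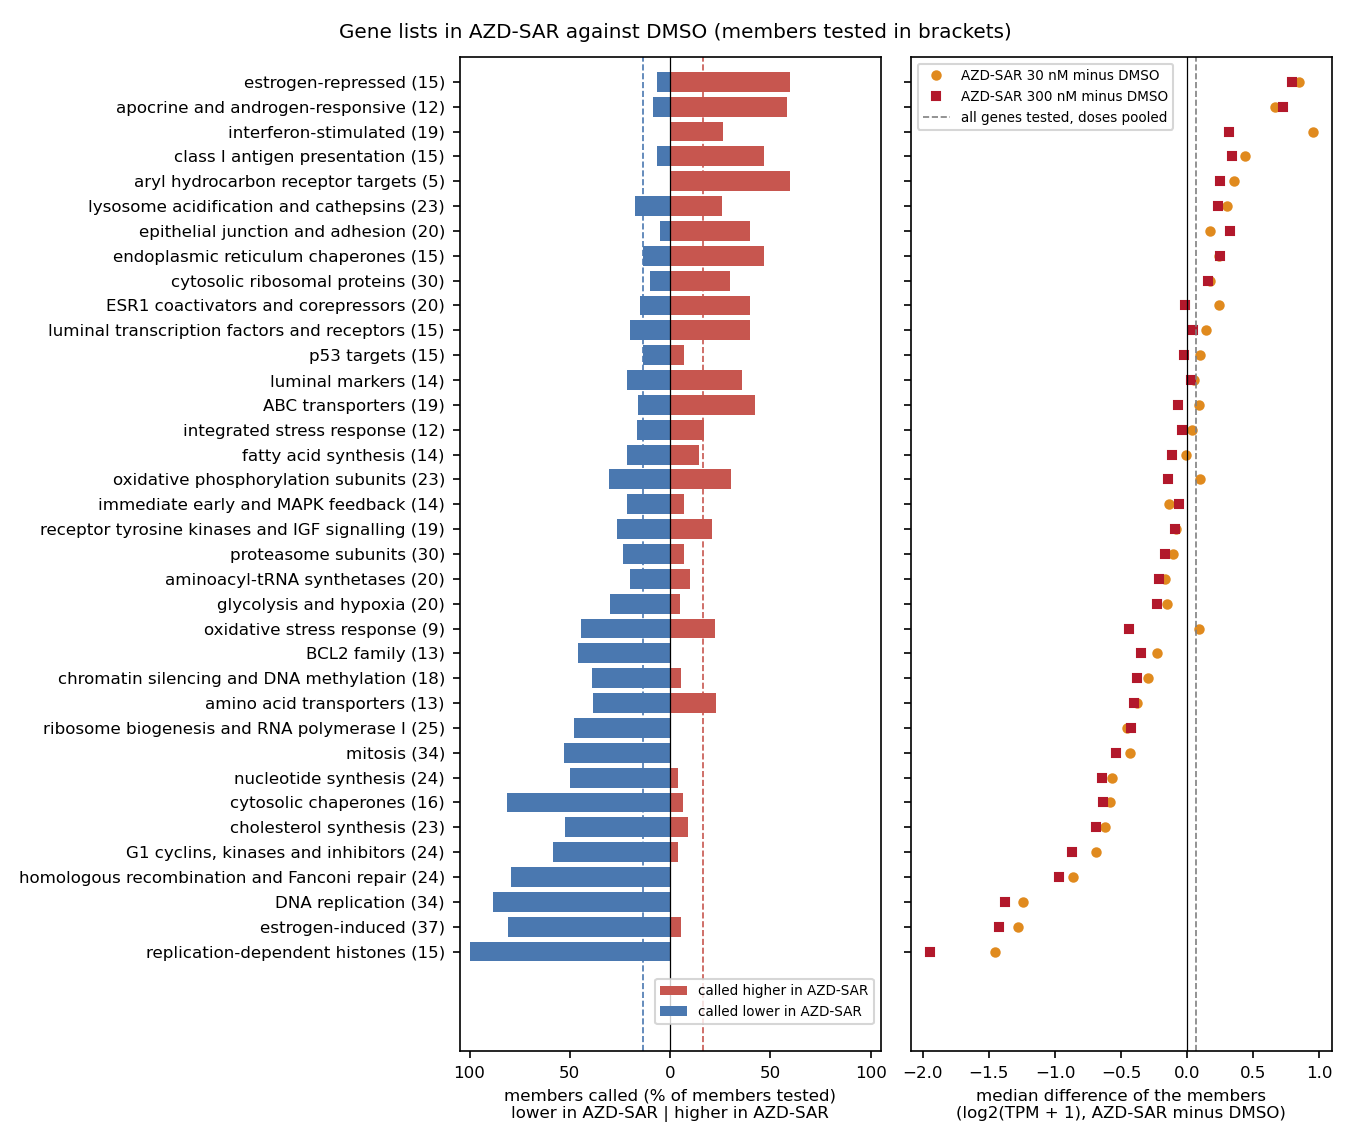
Left, share of tested members called higher (red) or lower (blue) with AZD-SAR for each gene list of at least 5 tested members, with dashed lines at the shares over all genes (16.2% and 13.5%). Right, median member difference from DMSO on the log2(TPM + 1) scale at 30 nM and 300 nM; replication-dependent histones, estrogen-induced and DNA replication genes stand lowest, and estrogen-repressed and apocrine genes are among the highest at both doses.

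Genes that carry cells from G1 into S phase were lower with AZD-SAR. Of 24 G1 cyclins, kinases and inhibitors, 14 were called lower and 1 higher, with a median of -0.80. E2F1, the activator of S-phase genes, was at 5.14, 4.93 and 5.37 TPM at 30 nM and 3.79, 5.27 and 5.66 TPM at 300 nM, against 22.1, 22.1 and 22.1 TPM with DMSO, a difference of -1.95 ± 0.12 (adjusted p = 5.71e-13) between tight and separate groups. CCNE2, the cyclin E2 partner of CDK2, averaged 1.32 ± 0.774 TPM with AZD-SAR and 9.8 ± 1.43 TPM with DMSO, and fell by 2.28. CDC25A, a phosphatase that activates CDK2, fell by 1.74, and CDK4 by 1.21. CDKN1A, the inhibitor p21, also fell (-1.03 ± 0.18), while CDKN1B, the inhibitor p27, differed by -0.04 and RB1 by 0.12 without a call. RBL2, the pocket protein p130 of quiescent cells, was the member that rose, by 1.39 (adjusted p = 2.82e-05).

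DNA replication genes fell in 30 of 34 cases (88.2%) and none rose, with a median of -1.30. CDC6, which loads the MCM helicase onto origins, was at 2.51, 5.01 and 0.434 TPM at 30 nM and 1.14, 1.44 and 4.19 TPM at 300 nM, against 22.4, 12.1 and 16.5 TPM with DMSO, a difference of -2.52 ± 0.44 (adjusted p = 5.74e-05). CDT1, its partner in licensing, was at 4.04, 4.17 and 3.11 TPM at 30 nM and 3.51, 3.47 and 4.38 TPM at 300 nM, against 27.2, 17.1 and 25.2 TPM with DMSO, a difference of -2.32 ± 0.23. CDC6 varied widely between AZD-SAR libraries and CDT1 little, and in neither did the groups overlap. The helicase subunits MCM5 (-2.01), MCM6 (-1.98), MCM7 (-1.82), MCM3 (-1.61), MCM2 (-1.58) and MCM4 (-0.53) were all called lower. GINS4, of the GINS helicase complex, fell by 2.16 and RFC5, of the clamp loader, by 2.11. The members not called were POLE (-0.49), PRIM2 (-0.12), POLA1 (0.07) and CDC7 (0.09). The promoters of CDC6, CDT1 and MCM6 printed above belong to this group.

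Replication-dependent histones, made in S phase, were called lower in all 15 tested members, with a median of -1.70. HIST1H1B, a linker histone, was at 66.3, 63.5 and 74.9 TPM at 30 nM and 36.9, 29.6 and 87.4 TPM at 300 nM, against 379.5, 364 and 380.4 TPM with DMSO, a difference of -2.72 ± 0.26 (adjusted p = 2.74e-09). HIST1H4B and HIST1H4C, H4 genes of near-identical coding sequence whose reads may be split, fell by 2.60 and 2.52. Another 4 listed histone genes were below the level filter.

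Homologous recombination and Fanconi genes were called lower in 19 of 24 cases and higher in none (median -0.97). BRCA1, the recombination mediator, averaged 12.8 ± 4.62 TPM with AZD-SAR and 43.7 ± 1.78 TPM with DMSO, a fall of 1.75. EXO1, which resects DNA ends, fell by 1.69, RAD54L by 1.59 and XRCC2 by 1.42. Of 24 nucleotide synthesis genes, 12 fell and 1 rose (median -0.60). RRM2, the small subunit of ribonucleotide reductase, was at 56.3, 40.6 and 28 TPM at 30 nM and 37.2, 44.2 and 40.1 TPM at 300 nM, against 172, 158 and 159 TPM with DMSO, a difference of -1.99 ± 0.20, and thymidylate synthase TYMS and thymidine kinase TK1 fell by 1.32 and 1.18. ATIC, of purine synthesis, was the member that rose (0.65). Of 18 genes of chromatin silencing and DNA methylation, 7 fell and 1 rose, led by UHRF1, which guides DNMT1 to replicated DNA (1.97 ± 0.602 TPM with AZD-SAR against 13.2 ± 0.665 TPM with DMSO). SUV39H1 fell by 1.72 and HELLS by 1.28, whereas DNMT1 itself differed by 0.08 without a call.

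Mitotic genes had smaller differences on the median. Of 34 tested, 18 (52.9%) were called lower and none higher, with a median of -0.50. CDK1, the mitotic kinase, was at 79.2, 83.6 and 91.6 TPM at 30 nM and 68.5, 37 and 83 TPM at 300 nM, against 286, 366 and 342 TPM with DMSO, a difference of -2.20 ± 0.30 (adjusted p = 1.43e-06). MAD2L1 of the spindle checkpoint fell by 1.93, AURKB of the chromosomal passenger complex by 1.86 and BUB1B by 1.48. MKI67, the proliferation marker Ki-67, was at 45.8, 48.4 and 40 TPM at 30 nM and 43.1, 55.6 and 36.7 TPM at 300 nM, against 59.7, 55.4 and 53.3 TPM with DMSO, and its difference of -0.33 ± 0.14 was not called (adjusted p = 0.0701); it was called with values of -0.38 after median-of-ratios scaling and -0.39 over protein-coding genes. TOP2A (-0.16), PLK1 (-0.18), UBE2C (-0.15) and CCNB1 (0.42) were not called either.

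**Figure D4:**
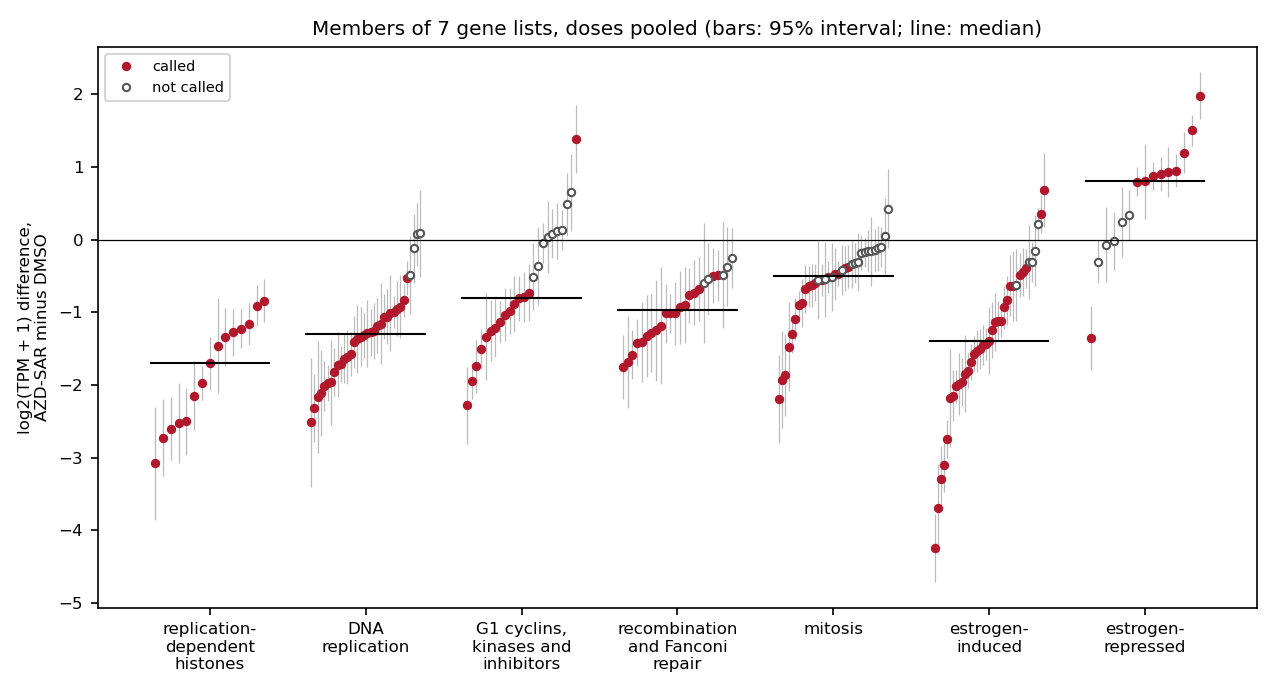
Difference between AZD-SAR and DMSO on the log2(TPM + 1) scale for each tested member of 7 gene lists, with 95% intervals; filled points are called, open points are not, and lines are list medians. All 15 histones and 30 of 34 DNA replication genes lie below 0 and are called, whereas mitotic genes spread from below -2 to above 0, and estrogen-induced and estrogen-repressed genes lie mostly on opposite sides of it.

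Ribosome biogenesis and cholesterol synthesis genes were lower in part. Of 25 ribosome biogenesis and RNA polymerase I genes, 12 fell and none rose (median -0.43), among them NPM1, the nucleolar chaperone nucleophosmin (2549 ± 454 TPM with AZD-SAR against 4893 ± 84.2 TPM with DMSO), BOP1 (-1.01), GNL3 (-0.93) and NOP56 (-0.88). Cholesterol synthesis genes fell in 12 of 23 cases and rose in 2 (median -0.70). HMGCS1, which makes HMG-CoA, was at 36.3, 35.8 and 42.1 TPM at 30 nM and 29.8, 41.5 and 33.7 TPM at 300 nM, against 92.5, 106 and 92.1 TPM with DMSO, a difference of -1.39 ± 0.13 (adjusted p = 1.64e-09). EBP, a sterol isomerase, fell by 1.23 and IDI1, which isomerises isopentenyl diphosphate, by 1.03, while SREBF2, the transcription factor of the pathway, rose by 0.30 with overlapping groups. In fatty acid synthesis 3 of 14 fell and 2 rose, near the shares over all genes tested (13.5% lower and 16.2% higher). Fatty acid synthase FASN fell by 0.93.

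Cytosolic chaperones fell in 13 of 16 cases and rose in 1 (median -0.62). FKBP4, a cochaperone of steroid receptors, was at 75, 83 and 85.9 TPM at 30 nM and 66, 85.8 and 102 TPM at 300 nM, against 259, 206 and 213 TPM with DMSO, a difference of -1.44 ± 0.11. FKBP5, also a steroid receptor cochaperone, fell by 1.46, and HSP90AA1, the inducible HSP90, by 1.77, with the HSP90AA1 level highest at replicate 3 of each AZD-SAR dose. HSPA8, the constitutive HSP70, averaged 334 ± 27.7 TPM with AZD-SAR and 669.7 ± 33 TPM with DMSO. HSPB1, the small chaperone HSP27, rose by 0.61. Chaperones of the endoplasmic reticulum split the other way, with 7 of 15 higher, 2 lower and a median of 0.24. CALR, the lectin chaperone calreticulin, was at 668, 750.5 and 693 TPM at 30 nM and 585, 737 and 709.8 TPM at 300 nM, against 278, 308 and 322 TPM with DMSO, a difference of 1.19 ± 0.11 (adjusted p = 3.36e-09). EDEM1, HERPUD1 and HSPA5, which encodes BiP, rose by 0.75, 0.62 and 0.52, and HSP90B1 fell by 0.43. Of 12 integrated stress response genes, 2 rose and 2 fell. DDIT4, an inhibitor of mTORC1, rose by 1.04 and ATF3 fell by 0.96, while ATF4, the central factor of the response, differed by 0.02 without a call.

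In amino acid and sugar uptake, SLC7A5, the light chain of the leucine transporter LAT1, was at 29, 30.9 and 27.4 TPM at 30 nM and 18.6, 29.6 and 31.6 TPM at 300 nM, against 96.8, 91 and 84.5 TPM with DMSO, a difference of -1.69 ± 0.12 (adjusted p = 9.57e-12). Its partner SLC3A2 fell by 0.75. Of 13 amino acid transporters, 5 fell and 3 rose (median -0.40). SLC2A1, the glucose transporter GLUT1, averaged 50.8 ± 4.38 TPM with AZD-SAR and 161 ± 11.3 TPM with DMSO, a fall of 1.65, and lactate dehydrogenase LDHA fell by 1.29. These were the largest of 6 falls among 20 glycolysis and hypoxia genes, of which 1, HK1, rose. Aminoacyl-tRNA synthetases had 4 falls and 2 rises in 20, where 13.5% of all genes tested were called lower and 16.2% higher. QARS, the glutaminyl-tRNA synthetase, was higher by 1.39.

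Cytosolic ribosomal proteins had 9 rises and 3 falls in 30 members, with a median of 0.19, and shifted unevenly. RPL7A, of the large subunit, was at 1638, 1246 and 977 TPM at 30 nM and 1849.6, 1634 and 923 TPM at 300 nM, against 579.8, 410.3 and 444 TPM with DMSO, a difference of 1.49 ± 0.32 (adjusted p = 6.80e-04). RPLP0, of the ribosomal stalk, fell by 0.93. For RPL7A, replicate 3 of each dose had the lowest AZD-SAR level, next to the highest RN7SL1 shares. Reads of these genes can be shared with their many processed pseudogenes, so single values are uncertain. Oxidative phosphorylation subunits were split, with 7 higher and 7 lower in 23 and a median of -0.07 that was 0.10 at 30 nM alone. NDUFB8 of complex I rose by 1.24 and CYC1 of complex III fell by 0.94.

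Of 12 apocrine and androgen-responsive genes, 7 were called higher and 1, FKBP5, lower, with a median of 0.72. Beside PIP, CLCA2, a chloride channel regulator, averaged 87.4 ± 21.5 TPM with AZD-SAR and 29.3 ± 5.42 TPM with DMSO, and TMPRSS2, a membrane serine protease, rose by 0.85. SCGB1D2, a secretoglobin, was called higher (1.48 ± 0.39) and lost its call without DMSO replicate 3. Of 20 epithelial junction genes, 8 rose and 1 fell (median 0.31). CDH1, the adherens junction protein E-cadherin, was at 686, 668 and 582 TPM at 30 nM and 753, 1127 and 522 TPM at 300 nM, against 272, 197 and 221 TPM with DMSO, a difference of 1.61 ± 0.29 (adjusted p = 8.46e-05), and the desmosomal genes PKP2 and DSP rose by 1.18 and 0.71. CLDN7, a claudin, fell by 0.47.

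ABC transporters were called higher in 8 of 19 cases and lower in 3, and the list median was small and changed sign with scaling. ABCC5, an exporter of cyclic nucleotides, averaged 191 ± 22.5 TPM with AZD-SAR and 65.3 ± 7.57 TPM with DMSO, ABCA12, a lipid transporter of skin, rose by 1.61, and ABCC11, an exporter of apocrine glands, by 1.01. Among 23 genes of lysosome acidification and cathepsins, 6 rose and 4 fell, where 16.2% of all genes tested were called higher and 13.5% lower. ATP6V1H, a subunit of the proton pump, averaged 227 ± 58.5 TPM with AZD-SAR and 73.7 ± 12.7 TPM with DMSO, TFEB, the lysosomal transcription factor, had 17.2, 4.46 and 9.67 TPM at 30 nM and 8.27, 12.7 and 2.16 TPM at 300 nM, against 1.63, 1.68 and 1.54 TPM with DMSO, and CTSD, the cathepsin D that is itself estrogen-induced, fell by 0.84. TFEB libraries with AZD-SAR spread widely, yet all lay above DMSO.

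Class I antigen presentation genes were called higher in 7 of 15 cases and lower in 1 (median 0.41). HLA-C averaged 1596 ± 381 TPM with AZD-SAR and 655 ± 159 TPM with DMSO, HLA-B rose by 1.42 and ERAP1, which trims peptides, by 1.47; CALR is counted here too. HLA genes are near-identical in part, and their reads may be split. B2M, the invariant chain, differed by -0.15 without a call, and the transporter TAP2 fell by 0.57. Of 19 interferon-stimulated genes, 5 rose and none fell (median 0.68). OAS1, a sensor of double-stranded RNA, IRF9 and ISG15 rose by 1.49, 1.10 and 1.19. The list median was 0.95 at 30 nM and 0.32 at 300 nM. ISG15 lost its call at 300 nM alone and without DMSO replicate 3.

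Of 5 aryl hydrocarbon receptor genes tested, 3 were called higher. Beside CYP1A1, CYP1B1 rose by 0.46 and NQO1, a quinone reductase, by 0.32, whereas TIPARP (-0.23) and AHR itself (0.02) were not called. CYP1B1 lost its call at 30 nM alone and without DMSO replicate 2 or 3, and NQO1 at 300 nM alone. In oxidative stress response, 2 of 9 rose and 4 fell, with a median of -0.25 that was 0.09 at 30 nM alone and with OSGIN1 lower by 1.23.

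In the integrated stress response list 16.7% of members were called each way, near the shares over all genes, and among p53 targets 6.67% were called higher and 13.3% lower. BCL2 family genes fell in 6 of 13 cases and none rose, including PMAIP1, BAD (-1.29) and BID (-1.20), which promote cell death, and MCL1 (-0.46), which opposes it. Of 15 p53 targets, 2 fell (AEN -1.28, CDKN1A) and 1 rose (SESN1, 0.84), with MDM2 at 0.01. Immediate early and MAPK feedback genes had 3 falls, EGR3, JUN (-1.19) and IER3 (-1.17), and 1 rise, PHLDA1 (0.97), in 14. Receptor tyrosine kinases and insulin-like growth factor genes had 4 rises (ERBB2, ERBB3 0.61, ERBB4 0.58 and the insulin receptor INSR 0.48) and 5 falls (RET, IGFBP4, FGFR3 -1.25, IGFBP2 -0.72 and IGFBP5 -0.39) in 19. Proteasome subunits had 7 falls and 2 rises in 30, where 13.5% of all genes tested were called lower and 16.2% higher. PSMA5 was lower by 1.05 and PSMA2 higher by 0.94. PSMA2 lost its call at 30 nM alone and without DMSO replicate 2 or 3.

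Between the doses no gene passed the adjusted threshold. At 300 nM against 30 nM, 0 genes (0%) were called by limma, 22 were called without the level filter, and 644 (4.47%) had an unadjusted p below 0.05. The doses by themselves called 2968 genes at 30 nM and 3682 at 300 nM against the same DMSO libraries. GDPD3, a lysophospholipase D, had the smallest p for a rise with dose, at 37.0, 40.5 and 34.1 TPM with 300 nM, against 20.8, 17.8 and 18.5 TPM with 30 nM. The doses did not overlap for GDPD3, with a difference of 0.93 and an adjusted p of 0.95. Next were SYBU and DNAJC2, with differences of 0.79 and 0.90. MRPS18B, of the mitochondrial ribosome, had the smallest p for a fall (-0.88), followed by RP11-480I12.2 (-3.69) and BCORL1 (-1.53). At 300 nM against 30 nM the median over the estrogen-induced list was -0.10 and over all genes -0.05.

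AZD-SAR was then compared at matched doses with the compound that shares its scaffold and with those that share its side chain, 3 pairs of 6 against 6 libraries with p-values adjusted jointly over genes and pairs. Against AZD9496, 204 genes (1.42%) were higher and 1046 (7.26%) lower with AZD-SAR. Against SAR439859, 95 (0.66%) were higher and 59 (0.41%) lower. Against GDC-SAR, the other hybrid, 7 (0.0486%) were higher and 5 (0.0347%) lower. Adjusted within each pair these counts were 2155, 8 and 0 in all, so most calls against SAR439859 and all against GDC-SAR rest on the joint adjustment, and 1711 and 453 genes had an unadjusted p below 0.05. The half-width of the 95% interval had a median of 0.34, and the interval lay within 1 on the log2 scale of no difference for 82.8% of genes against AZD9496, 87.2% against SAR439859 and 90.3% against GDC-SAR.

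Most estrogen-induced genes were lower with AZD-SAR than with AZD9496, the compound with the same scaffold and another side chain. Of the 37 estrogen-induced genes, 23 were lower with AZD-SAR than with AZD9496 and 1, CA12, was higher, with a median of -0.86 against -0.08 over all genes. KRT13 had a lowest, median and highest level of 1.61, 3 and 3.65 TPM with AZD-SAR, against 27.1, 32.4 and 45.1 TPM with AZD9496 and a mean of 46.8 ± 4.75 TPM with DMSO. The difference of -3.23 (95% interval -3.74 to -2.73, joint adjusted p = 3.63e-10) separated all 6 AZD-SAR from all 6 AZD9496 libraries. IL17RB had 4.13, 4.73 and 5.14 TPM with AZD-SAR, against 23, 24.8 and 31.9 TPM with AZD9496, a difference of -2.24 (95% interval -2.45 to -2.03, joint adjusted p = 1.54e-15). RAPGEFL1 averaged 1.36 ± 0.666 TPM with AZD-SAR, 9.71 ± 2.29 TPM with AZD9496 and 9.33 ± 1.52 TPM with DMSO, so that its AZD9496 and DMSO means lay within 1 SD of each other. CITED1 and LINC01016 differed by -2.70 and -2.28. GREB1 averaged 1.13 ± 0.369 TPM with AZD-SAR, 5.09 ± 1.02 TPM with AZD9496 and 19.7 ± 1.59 TPM with DMSO, a difference of -1.51 (95% interval -1.88 to -1.14, joint adjusted p = 2.29e-06). CCND1 averaged 93.2 ± 10.8 TPM with AZD-SAR, 217 ± 14.9 TPM with AZD9496 and 267 ± 39.4 TPM with DMSO, and differed by -1.22. STC1, SLC7A5, CELSR2 and SLC2A1, all called lower with AZD-SAR, differed by -1.95, -1.71, -1.76 and -1.30.

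DNA replication genes were lower with AZD-SAR than with AZD9496 in 20 of 34 cases and higher in none (median -0.65), replication-dependent histones in 14 of 15 (median -0.87) and mitotic genes in 14 of 34 (median -0.29). E2F1 differed by -1.38 (95% interval -1.58 to -1.18, joint adjusted p = 1.29e-10), CDT1 by -1.39 and HIST1H1B by -1.72. ESR1 transcript, also called lower with AZD-SAR, differed by -0.40 (95% interval -0.62 to -0.17, joint adjusted p = 0.0458). Among genes higher with AZD-SAR, CD55, a membrane inhibitor of complement, had 254, 335 and 433 TPM with AZD-SAR, against 128, 154 and 167 TPM with AZD9496 and a mean of 98.5 ± 10.6 TPM with DMSO, a difference of 1.16 (95% interval 0.89 to 1.42, joint adjusted p = 7.52e-07). GATA3, CYP1A1, BLNK and PIP were higher by 1.17, 0.98, 0.90 and 0.64, and so were AC073284.4 (2.41), LINC00505 (1.44), MCF2L-AS1 (1.25) and RP5-1159O4.1 (1.16). CALR was not called, with 691 ± 59.7 TPM for AZD-SAR, 740.3 ± 50.2 TPM for AZD9496 and a difference of -0.10 (95% interval -0.29 to 0.09, joint adjusted p = 0.711).

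At matched dose, 176 genes were called against AZD9496 at 30 nM and 425 at 300 nM, adjusted jointly over 6 pairs. The AZD9496 count moved between 647 and 2102 as single libraries were left out, and reached 2102 without AZD-SAR 300 nM replicate 3.

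Against SAR439859, which has the same side chain on another scaffold, few genes were called. E2F2, an S-phase activator, averaged 5.33 ± 1.57 TPM with AZD-SAR, 1.88 ± 0.86 TPM with SAR439859 and 15.3 ± 5.2 TPM with DMSO, a difference from SAR439859 of 1.15 (95% interval 0.67 to 1.64, joint adjusted p = 0.00437), and its adjusted p within the pair was 0.0533. FANCA, of the Fanconi core complex, averaged 12.1 ± 2.57 TPM with AZD-SAR and 25.8 ± 12.8 TPM with SAR439859, a difference of -0.95 (95% interval -1.30 to -0.59, joint adjusted p = 0.00118). FANCA and FAM25A (0.69) kept their calls when adjusted within the pair (0.0273 each). Of the estrogen-induced genes, 7 were called by the joint adjustment, all higher with AZD-SAR than with SAR439859. Over all genes tested, 0.66% were called higher and 0.41% lower, and adjusted within the pair 8 genes were called in all. The 7 were OLFM1 (0.73), TPD52L1 (0.54), TFF3 (0.42), IGFBP4 (0.40), RARA (0.37), FKBP4 (0.33) and STC1 (0.32). PGR, TFF1 and GREB1 were not called, with intervals of 0.10 to 0.69, -0.09 to 0.48 and -0.57 to 0.17. The SAR439859 libraries were uneven: at 30 nM, replicate 3 listed 15818 genes above 0 and held 21.4 TPM of CITED1, where the other 5 held 0 to 1.10. The 154 calls against SAR439859 were 62 without AZD-SAR 30 nM replicate 1 and 452 without SAR439859 30 nM replicate 1.

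Against GDC-SAR, which has the same side chain on the scaffold of GDC-0810, no estrogen-induced gene was called. USP30, a mitochondrial deubiquitinase, was higher (0.50), and NAAA, a lysosomal amidase, and ZNF605 were lower (-0.68 and -0.62), each with an adjusted p of 1 within the pair. Intervals for AZD-SAR minus GDC-SAR were -0.33 to 0.26 for PGR, -0.48 to 0.26 for GREB1, -0.33 to 0.11 for CCND1, -0.31 to 0.10 for E2F1 and -0.57 to 0.44 for KRT13. These intervals bound the difference and do not show that the 2 hybrids act alike.

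**Figure D5:**
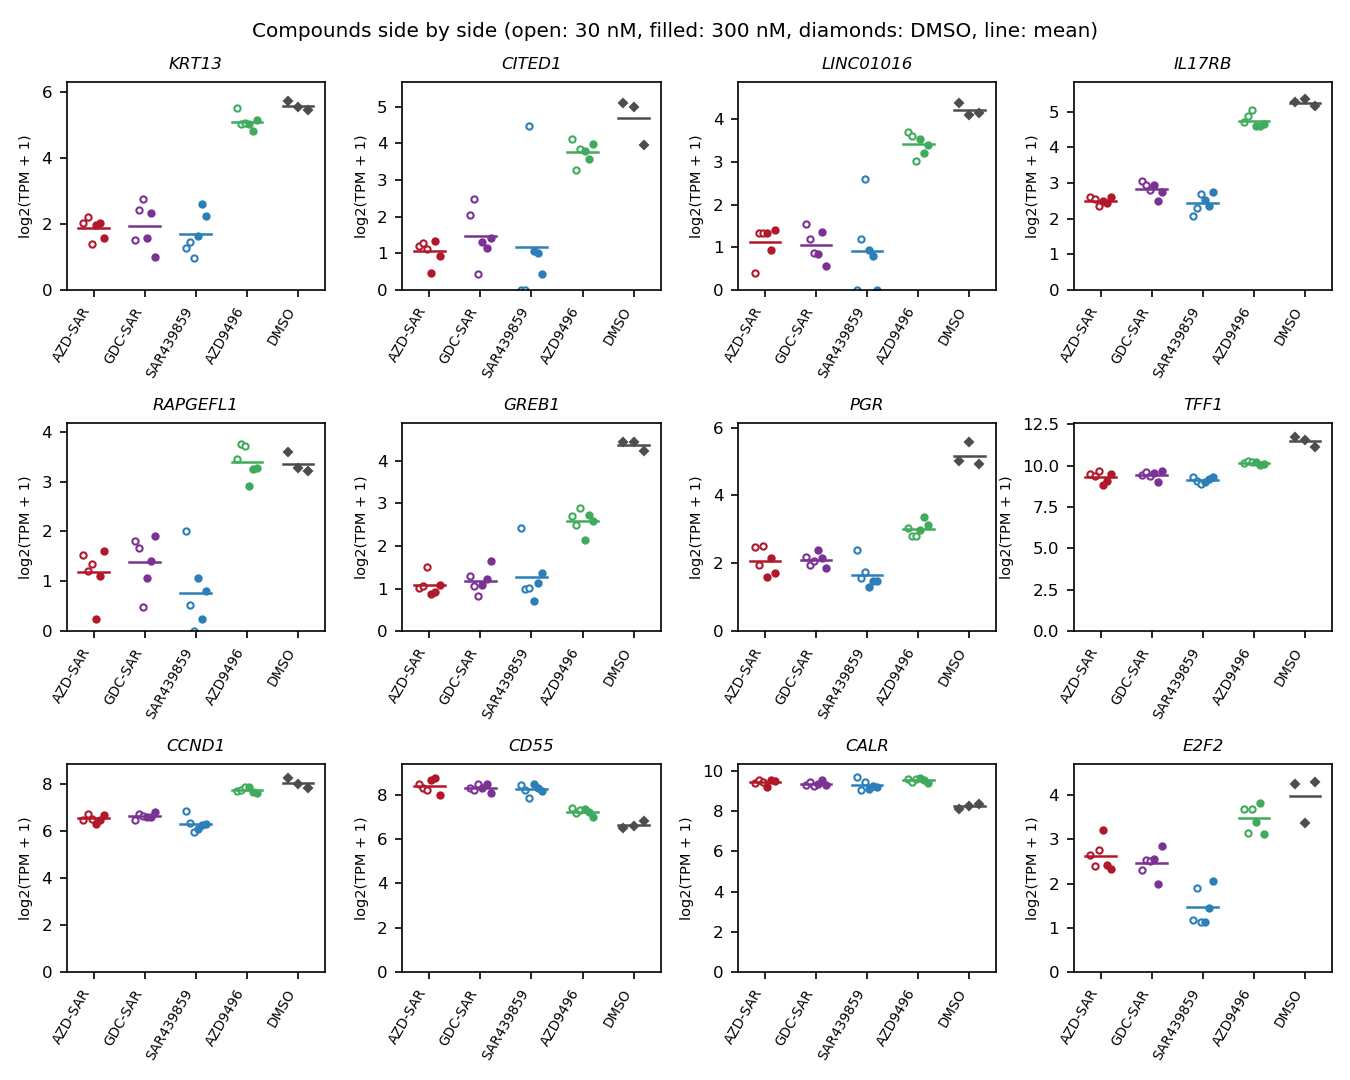
Level on the log2(TPM + 1) scale of 12 genes with AZD-SAR, GDC-SAR, SAR439859 and AZD9496 (6 libraries each, open points 30 nM and filled points 300 nM) and with DMSO (3 libraries, diamonds); lines are means. For KRT13, IL17RB, GREB1 and CCND1 the 6 AZD-SAR libraries lie below the 6 AZD9496 libraries and overlap those of GDC-SAR and SAR439859, and 1 SAR439859 library at 30 nM stands above the rest for CITED1 and LINC01016.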

How the data were processed

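The authors deposited 1 table of TPM values for 46706 gene symbols in 39 libraries, each summing to 1000000; STAR and GRCh38 are named, without versions, in the submitters' processing notes, and the labels' protocols give DNase-treated RNA and stranded NuGEN libraries. Read counts were not used here, so depth is unknown and no counting interval is given. Because values are shares, a few very abundant RNAs can shift all others. Groups came from the titles; the labels give no replicate numbers, so numbers follow accession order.

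Genes averaging 1 TPM or more over all libraries (14404) were fitted on log2(TPM + 1) with limma 3.58.1 in R 4.3.3 (13 group means, trended variances, 26 residual degrees of freedom), and p-values were Benjamini-Hochberg adjusted over all genes, or jointly over genes and 3 compound pairs. "Higher" and "lower" calls need an adjusted p below 0.05. Errors after ± are SD for TPM and SE for log2 differences. On data simulated for AZD-SAR against DMSO, with 200 of 14404 genes changed, 71.1% of log2 changes of 1 and 90.9% of log2 changes of 2 were recovered, with 8 false calls.

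Genes named are 7 estrogen and proliferation markers (CCND1, ESR1, GREB1, MKI67, MYC, PGR, TFF1), then the 12 largest rises and falls among called genes with 5 TPM or more in the higher group and no overlap, then up to 4 called members of each list and members of special role, and for compound pairs the 5 largest each way; other members are named to complete a count. The members and lists were chosen with earlier results of these data known. Gene positions are from GENCODE 29 on GRCh38, which matched 12082 symbols (83.88%). Alternatives were another pseudocount, filter, scaling, gene set, set of libraries and adjustment, and each library left out in turn. Rescaling over protein-coding genes, adjustment within a pair, a block on replicate number and leaving out both AZD-SAR replicates 3 were chosen after seeing the data.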

Additional observations from a re-analysis of the deposited data

Results flagged for a closer look

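Among the 6 AZD-SAR libraries, 1 library stood far from the other 5 for 12 of 157 named genes and for 6 of 38 list means, judged by its gap to the nearest library as a share of the whole range. About 1 in 20 such values would arise if the 6 libraries were independent draws from 1 normal distribution. The libraries held both doses and gene levels were taken as TPM, so the flagged counts cannot be read against that rate.

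The AZD-SAR 300 nM replicate 1 library was the lowest for all 6 list means. The mean log2(TPM + 1) there was 4.01 for estrogen-induced genes (gap share 0.741), 5.17 for cholesterol synthesis (0.782), 5.94 for glycolysis and hypoxia (0.823), 5.75 for endoplasmic reticulum chaperones (0.829), 3.59 for the integrated stress response (0.636) and 2.94 for immediate early and MAPK feedback genes (0.681). The same library was lowest for SLC7A5, at 18.6 TPM (0.675), and highest for PMAIP1, at 0.957 TPM (0.667), and BOP1, at 4.97 TPM (0.651). Its median-of-ratios factor, a measure of the general level of a library over its genes, was 0.88766. This was the lowest factor among the AZD-SAR libraries, whose median was 1.0165. The list means were taken without that scaling, so the 6 flags may not be separate. The part of the factor in them was not tested.

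AZD-SAR 30 nM replicate 2 was highest for the interferon-stimulated genes OAS1, at 10.7 TPM (gap share 0.751), and ISG15, at 25.9 TPM (0.628), and for the mitotic checkpoint gene BUB1B, at 15.5 TPM (0.691). AZD-SAR 30 nM replicate 3 was highest for GREB1, at 1.84 TPM (0.692), and for TYMS, at 34.9 TPM (0.634). AZD-SAR 300 nM replicate 2 was highest for AC104655.3, at 87.5 TPM (0.703), PHLDA1, at 5.90 TPM (0.63), and FOXA1, at 868 TPM (0.635). AZD-SAR 30 nM replicate 1 was highest for the proteasome subunit PSMC6, at 96.0 TPM (0.632).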

How the results depend on the processing

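No called named gene changed direction in any setting tried, and 134 of 157 named genes kept their direction and their side of the threshold in every setting that tested them (146 of the 157 are protein-coding and entered the settings limited to such genes). Genes called higher with AZD-SAR than with DMSO numbered 1543 to 2434 as single libraries were left out, with 1543 without DMSO replicate 2. At 30 nM against DMSO the range was 1976 to 2405, with 1976 again without DMSO replicate 2, and at 300 nM a fit of only the libraries compared called 2274. Between the doses, 22 genes were called without the level filter and 1 in a fit of only the libraries compared. Against AZD9496, 828 were called without the filter, 478 with only the libraries compared, 2155 with p adjusted within the pair and 647 to 2102 as single libraries were left out (647 without AZD-SAR 300 nM replicate 1, 2102 without AZD-SAR 300 nM replicate 3). Against SAR439859 these were 13 with only the libraries compared, 8 within the pair and 62 to 452 with single libraries left out. Against GDC-SAR, 45 were called without the filter, 4 with only the libraries compared, 0 within the pair and 7 to 33 with single libraries left out (33 without AZD-SAR 300 nM replicate 3). The causes of these moves were not tested. Of 190 list medians recomputed, 15 moved by more than the SD of that median over the AZD-SAR libraries of both doses. This SD includes any difference between the doses. List medians near 0 changed sign with dose (oxidative phosphorylation, oxidative stress, coactivators, p53 targets, integrated stress response) or scaling (ABC transporters, luminal markers). The labels give no replicate numbers, and numbers in accession order are not a pairing by design. Yet replicate 1 had the highest share of ribosomal protein genes in 13 of 13 groups and replicate 3 the highest RN7SL1 share in 9 of 12 treated groups, while the deviations of same-numbered libraries from their group means correlated at a median of 0.05 (lowest -0.16) and of other-numbered ones at -0.03. With a replicate block, 2621 genes were called higher and 2134 lower than with DMSO, 1922 were called against AZD9496, 328 against SAR439859, 28 against GDC-SAR and 0 between the doses, and of the named genes only MKI67 changed side (-0.33, adjusted p = 0.0279). Read depth is unknown, so low genes near 0 TPM carry an unmeasured counting error.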
